A study of Mus musculus with 9 samples.

Results

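The 9 genes described here belong to the red cell lineage and were followed through RNA-seq libraries of sorted mouse bone marrow (BM) cells. They were the 4 adult globin genes Hba-a1, Hba-a2, Hbb-bs and Hbb-bt, and 5 genes used by nucleated erythroid cells, Klf1, Slc4a1, Alas2, Car2 and Tfrc. The members are the rows of the read count table that carry these 9 names, out of 46078 deposited genes, and all 9 passed the filter on low counts that left 15937 genes for testing. The cells were endothelial cells (ECs) from the BM of wild type mice of strain B6, with no treatment named, sorted as CD45-Ter119-CD31+ and then split on Sca-1, the surface protein encoded by Ly6a. There were 4 Sca-1+ libraries, numbered 7, 13, 15 and 19 at the end of their labels, and 5 Sca-1- libraries, numbered 8, 10, 14, 16 and 22. The tag wt stands in the labels of Sca-1+ 15 and 19 and Sca-1- 8 and 16. A different tag, which the labels do not explain, stands in those of Sca-1+ 13 and Sca-1- 10, 14 and 22. Sca-1+ 7 carries neither tag. The labels of Sca-1+ 15 and Sca-1- 16 share an identifying number, no age is given, and nothing else says which libraries came from the same mouse, so that p-values measure the spread between these libraries. The numbers that open the labels form separate runs for the fractions, and what they stand for is not given. Any difference in handling that goes with them cannot be told apart from Sca-1. Ter119 is a surface antigen of late erythroblasts and red cells, so the sort was set to leave those cells out.

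Red cells carry oxygen on hemoglobin, which is built from alpha and beta globin chains and from heme, an iron-containing ring. A committed erythroid progenitor switches on KLF1 and GATA1, takes up iron through the transferrin receptor, makes heme from the step run by ALAS2 onward, and fills with globin mRNA before it expels its nucleus. The young red cell that leaves the marrow, the reticulocyte, keeps globin mRNA but no longer transcribes, whereas Klf1, Car2 and Tfrc are expressed already in progenitors. In bulk RNA, fewer cells of a type and less RNA per cell cannot be told apart.

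The globin genes of each pair are near copies, which limits what their separate counts can say. The coding sequences of Hba-a1 and Hba-a2 in GENCODE M21 are 429 bases long and differ at 1 position, C381T counted from the A of the start codon, Hba-a1 first. The bases around that position are shown because they are the only coding bases that assign a read to one alpha copy, with the differing base in capitals, on GRCm38 at chr11:32284323-32284363 and chr11:32297140-32297180 on the plus strand.
Hba-a1: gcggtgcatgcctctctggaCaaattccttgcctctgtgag
Hba-a2: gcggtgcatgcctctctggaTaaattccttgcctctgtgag

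The beta pair is as close. The coding sequences of Hbb-bs and Hbb-bt are 444 bases long and also differ at 1 position, C417T with Hbb-bs first, on the minus strand at chr7:103826672-103826712 and chr7:103812663-103812703.
Hbb-bs: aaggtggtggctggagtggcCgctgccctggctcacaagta
Hbb-bt: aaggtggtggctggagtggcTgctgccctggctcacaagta

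Upstream of the start, the 2 alpha genes share a run of 297 of the 300 bases that RefSeq gives for each promoter region. The annotated first exon of Hba-a1 begins 161 bases further upstream than that of Hba-a2, although the same bases stand in front of Hba-a2, where no exon is annotated. A read from those bases that is placed at Hba-a2 falls in no annotated exon. How reads that match both copies were assigned is not given in the sources used here, and the split within each pair is uncertain.

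Promoter regions were available for 7 members, Slc4a1 and Car2 being the others. They were searched, from 130 to 11 bases before the RefSeq start, on both strands for the letters CACCC, which KLF factors bind, and the letters GATAA, which GATA factors bind. On the other strand these read GGGTG for the first motif and TTATC for the second, and in the members' windows no match of one overlapped a match of the other. CACCC was found in the windows of Hba-a1, Hba-a2, Hbb-bs, Hbb-bt, Klf1 and Alas2 and not in those of Tfrc, and 31.6% of 32851 promoter windows held it. GATAA was found in the windows of Klf1 and Alas2, and 10.7% of all windows held it. A match is a description of letters, not a bound site. The parts of 4 windows that lie in no annotated exon are shown because they carry these letters in 1 alpha gene, 1 beta gene and the 2 erythroid regulators of transcription and heme, with the matches in capitals, at chr11:32296362-32296481 (plus strand), chr7:103813997-103814053 (minus strand), chr8:84901852-84901927 (plus strand) and chrX:150547287-150547374 (plus strand) on GRCm38.
Hba-a2: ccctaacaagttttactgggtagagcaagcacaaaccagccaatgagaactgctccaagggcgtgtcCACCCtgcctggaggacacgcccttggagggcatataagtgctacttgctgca
Hbb-bt: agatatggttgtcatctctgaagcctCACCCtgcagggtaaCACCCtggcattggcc
Klf1: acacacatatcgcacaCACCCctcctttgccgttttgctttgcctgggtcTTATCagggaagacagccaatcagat
Alas2: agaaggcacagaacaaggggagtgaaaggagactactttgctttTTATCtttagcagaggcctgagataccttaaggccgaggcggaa

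The libraries held 21581653 to 25959818 counts, and 3 counts, the smallest level taken as detected, corresponded to 0.0996 to 0.209 CPM (counts relative to a fixed total, with library sizes scaled by TMM). Ly6a itself lay between 874 and 1306 CPM in the Sca-1+ libraries and between 0.24 and 1.49 CPM in the Sca-1- libraries. The fractions also differed in cell type markers. Of 15 endothelial markers, 12 were lower in Sca-1- ECs, among them the endothelial cadherin Cdh5 at 235 to 297 CPM against 2.44 to 13.1 CPM, and the list summed to 0.992% to 1.2% of the counts against 0.156% to 0.319%. Of 15 megakaryocyte and platelet markers, all 15 were higher in Sca-1- ECs, and they summed to between 0.00569% and 0.0112% of counts (Sca-1+) against between 3.31% and 6.92% (Sca-1-). Their part in the erythroid results was not tested. None of the listed markers of either kind was at 0 in every library of a fraction.

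All 9 members had higher average levels in the Sca-1- fraction, and 7 of them rose by the test, edgeR's quasi-likelihood F-test on all 9 libraries with Benjamini-Hochberg adjustment over 15937 genes. The 7 were Hba-a1, Hba-a2, Hbb-bt, Klf1, Slc4a1, Car2 and Tfrc, while Hbb-bs and Alas2 did not pass. All 9 passed without Sca-1+ 19 or without Sca-1- 16, and 4 passed without Sca-1+ 13. Of all genes tested, 44.8% were called in either direction, 21.4% as higher in Sca-1- ECs and 23.3% as lower. The members' median log2 fold change (Sca-1- over Sca-1+) was 2.69, beside -0.07 over all genes tested. Only Hba-a1, Klf1 and Car2 had every Sca-1- library above every Sca-1+ library, which 18.8% of all genes tested did. With library sizes left unscaled the median over all genes moved by -0.35 and calls as higher fell from 47.9% to 36.9% of all calls, and the 9 members still had positive log2 fold changes, of which 5 passed.

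**Figure D1:**
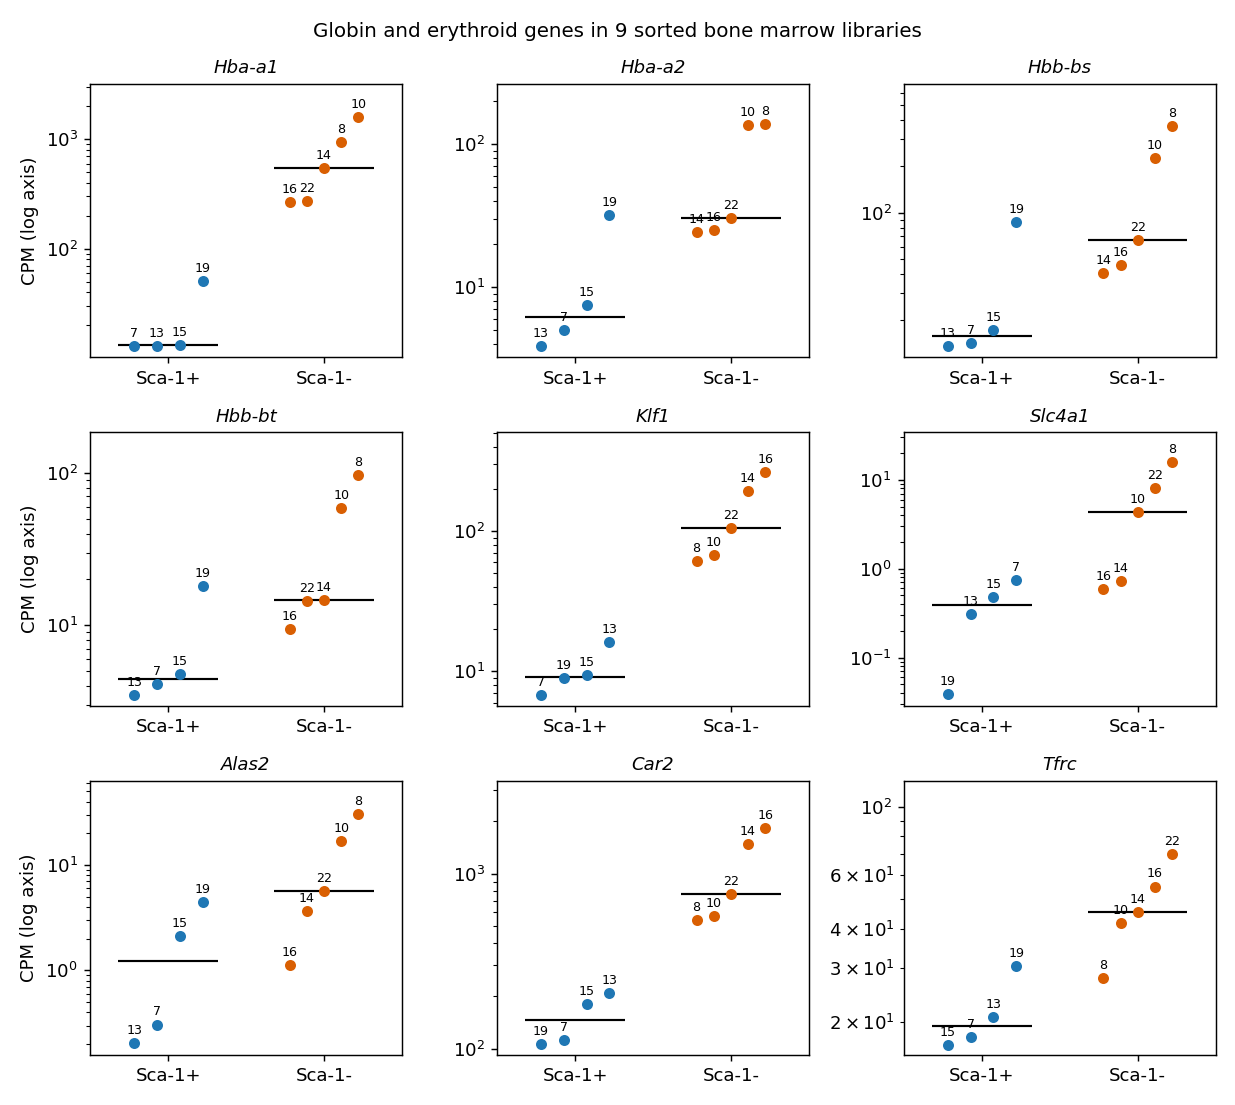
Level of each member in every library, as CPM with TMM-scaled library sizes on a log axis whose range differs between panels. Points are libraries with their label numbers and black lines are medians of 4 Sca-1+ and 5 Sca-1- libraries, and the fractions do not overlap for Hba-a1, Klf1 and Car2.

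Alpha globin came first among the globins. Hba-a1 on chromosome 11 lay at 13, 13, 13.1 and 50.6 CPM in Sca-1+ 7, 13, 15 and 19. It lay at 942, 1585, 541, 269 and 275 CPM in Sca-1- 8, 10, 14, 16 and 22. Every Sca-1- library was above every Sca-1+ library, and libraries 8 and 10 stood highest. The difference was 32.2-fold (log2 fold change 5.01, SE 0.78, adjusted p = 0.00059 by edgeR), and without Sca-1+ 19 the log2 fold change was 5.79.

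Hba-a2, the neighbouring alpha gene, behaved differently in size. Its levels were 4.98, 3.88, 7.46 and 32.2 CPM in the same Sca-1+ libraries and 139, 136, 24.5, 25.2 and 30.5 CPM in the Sca-1- libraries. Sca-1+ 19 was above Sca-1- 14, 16 and 22, so the fractions overlapped. The difference was 5.85-fold (log2 fold change 2.55, SE 0.84, adjusted p = 0.031 by edgeR), and the call was lost when Sca-1+ 7, 13 or 15 or Sca-1- 8 or 10 was left out, with adjusted p from 0.06 to 0.086. Without Sca-1+ 19 the log2 fold change was 3.7 (adjusted p = 0.0065 by edgeR).

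The 2 adult beta globins followed Hba-a2 rather than Hba-a1. Hbb-bs lay at 14.3, 13.6, 17.3 and 86.8 CPM in the Sca-1+ libraries and at 365, 225, 40.6, 45.8 and 66.1 CPM in the Sca-1- libraries. Its log2 fold change of 2.17 (SE 0.85) did not pass (adjusted p = 0.061 by edgeR). Sca-1+ 19 exceeded 3 of the 5 Sca-1- libraries, and without Sca-1+ 19 the log2 fold change was 3.3 with an adjusted p of 0.013 by edgeR. Leaving out Sca-1- 14 or 16 also brought the gene past the threshold, with adjusted p = 0.038 and 0.043 by edgeR.

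Hbb-bt, the second adult beta gene, had 4.16, 3.51, 4.77 and 18.2 CPM in the Sca-1+ libraries and 97.3, 58.7, 14.6, 9.43 and 14.5 CPM in the Sca-1- libraries. Here too Sca-1+ 19 overlapped Sca-1- 14, 16 and 22. The difference was 5.08-fold (log2 fold change 2.35, SE 0.82, adjusted p = 0.04 by edgeR), and was lost without any one of Sca-1+ 7, 13 and 15 and Sca-1- 8 and 10, with adjusted p from 0.069 to 0.1. Without Sca-1+ 19 it was 3.23 on the log2 scale (adjusted p = 0.016 by edgeR). Per kilobase of exon, the median Sca-1- level was 666 RPKM for Hba-a1, 86.1 for Hbb-bs, 45.7 for Hba-a2 and 20.8 for Hbb-bt. The median Sca-1+ levels were 16, 20.6, 9.32 and 6.35 RPKM in the same order.

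The 4 globins together made up a small part of every library. They made up 0.00443%, 0.00413%, 0.005% and 0.021% of the counts in Sca-1+ 7, 13, 15 and 19, and 0.104%, 0.116%, 0.0613%, 0.0406% and 0.0439% in Sca-1- 8, 10, 14, 16 and 22. The fractions did not overlap in this sum. Without Hba-a1 and Hba-a2, the beta globins made up 0.00208% to 0.0118% in Sca-1+ ECs and 0.00545% to 0.031% in Sca-1- ECs, and these ranges overlapped.

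The balance between the alpha and beta genes differed between the fractions. In Sca-1+ 7, 13, 15 and 19 the ratio of alpha to beta counts was 0.969, 0.986, 0.93 and 0.789. In Sca-1- 8, 10, 14, 16 and 22 it was 2.34, 6.06, 10.2, 5.33 and 3.79, so that the log2 ratio differed by 2.43 on average, against a pooled SD of 0.61. No Sca-1+ library reached the lowest Sca-1- ratio, and no test was run on this ratio.

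Most of this excess stood in the Hba-a1 row. Hba-a1 took 27% to 38.2% of the globin counts in Sca-1+ ECs and 61% to 87.2% in Sca-1- ECs. The ratio of Hba-a1 to Hba-a2 was 2.6, 3.34, 1.75 and 1.57 in Sca-1+ 7, 13, 15 and 19, and 6.75, 11.7, 22.1, 10.7 and 9.01 in Sca-1- 8, 10, 14, 16 and 22. By contrast, the ratio of Hba-a2 to the 2 beta genes was 0.227 to 0.338 in Sca-1+ ECs and 0.302 to 0.477 in Sca-1- ECs, which overlapped, and that of Hbb-bs to Hbb-bt was 3.45 to 4.78 against 2.77 to 4.86. With the 2 alpha rows summed the log2 fold change was 4.52 (adjusted p = 0.0012 by edgeR), and with the 2 beta rows summed it was 2.21 (adjusted p = 0.056).

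**Figure D2:**
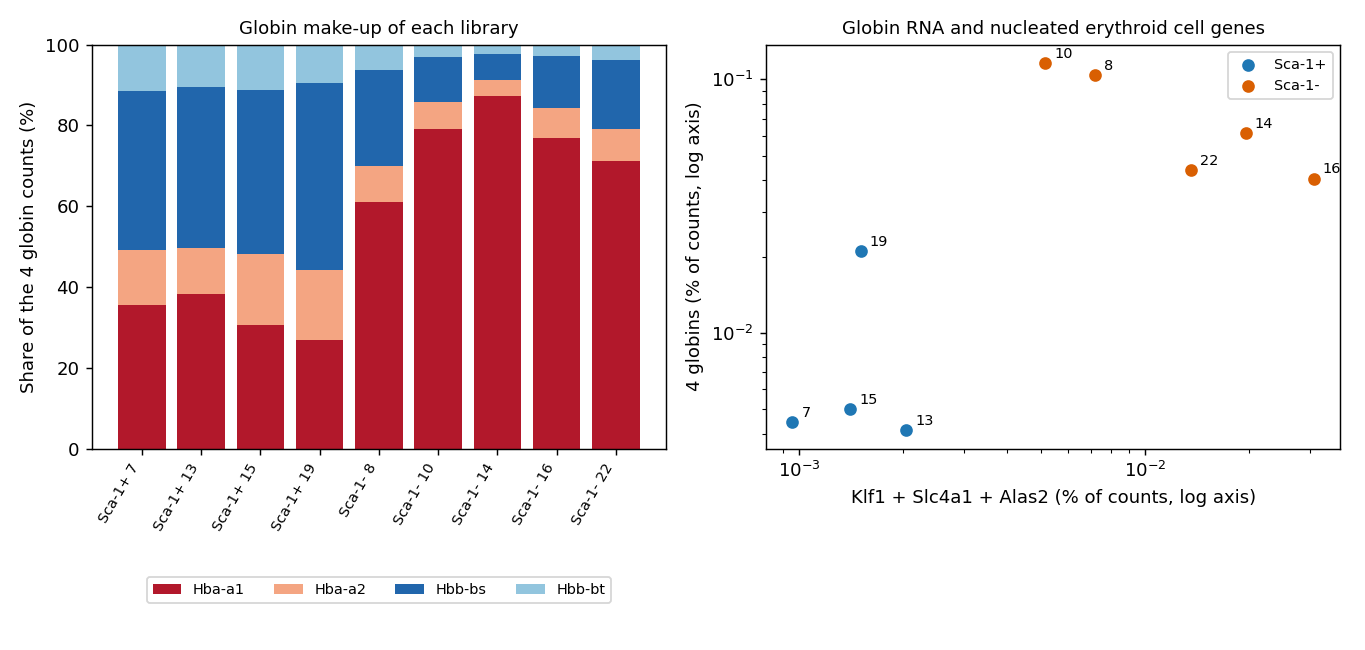
Left, share of each gene in the counts of the 4 globins (percent) for every library, where Hba-a1 takes 27% to 38.2% in Sca-1+ and 61% to 87.2% in Sca-1- libraries. Right, counts of the 4 globins against counts of Klf1, Slc4a1 and Alas2 as percent of all counts on log axes, with 1 point per library and label numbers beside the points.

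Other genes of the alpha cluster were read at the same time. Hbq1b, a theta-type globin gene that begins at position 32286965 of chromosome 11, downstream of Hba-a1, was listed at 0 in Sca-1+ 7, 15 and 19 and at 0.477 CPM in Sca-1+ 13. In Sca-1- 8, 10, 14, 16 and 22 it lay at 39.6, 81.5, 22.8, 16.8 and 12.1 CPM (log2 fold change 8.09, SE 1.25, adjusted p = 0.00058 by edgeR). Without Sca-1+ 13 the fitted log2 fold change was 12.7, against a fraction then all at 0, where the size depends on the fit's prior count. Its order over these 5 libraries had the same 2 libraries on top as Hba-a1, 10 and then 8. After subtraction of each fraction's mean log2 CPM, Hbq1b and Hba-a1 correlated at 0.37 over the 9 libraries. Hbq1a, which begins at position 32300069, downstream of Hba-a2, did not exceed 0.0698 CPM in any library.

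The embryonic globins were low or not detected. Hba-x, the embryonic alpha-type gene upstream of Hba-a1, had no count in the 4 Sca-1+ libraries and 0.326 to 3.65 CPM in the Sca-1- libraries, at least 16.7-fold higher against a floor of 3 counts per library (adjusted p = 0.0017 by edgeR). Hbb-y, the embryonic beta-type gene, had no count in Sca-1+ ECs and 0.122 to 1.63 CPM in Sca-1- ECs and was not tested. Hbb-bh1 and Hbb-bh2 were at 0 in all 9 libraries. Nprl3, the housekeeping gene on the other side of the alpha cluster, whose introns hold alpha globin enhancers, was looked at after its values were seen. It lay at 29.9 to 43.1 CPM in Sca-1+ ECs and 135 to 944 CPM in Sca-1- ECs (log2 fold change 3.52, SE 0.59, adjusted p = 0.00092 by edgeR). Further genes on that side differed from it. Snrnp25 rose by 1.34 (SE 0.2) on the log2 scale. Rhbdf1 (-0.64, SE 0.48, adjusted p = 0.31 by edgeR) and Mpg (-0.22, SE 0.29, adjusted p = 0.55 by edgeR) were not called.

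Klf1, the erythroid Krüppel-like factor that activates beta globin and many other erythroid genes, was higher in every Sca-1- library than in any Sca-1+ library. It lay at 6.82, 16.2, 9.36 and 8.98 CPM in Sca-1+ 7, 13, 15 and 19. It lay at 60.9, 67.5, 194, 263 and 106 CPM in Sca-1- 8, 10, 14, 16 and 22. The difference was 13.4-fold (log2 fold change 3.74, SE 0.53, adjusted p = 0.00035 by edgeR). The 2 libraries with the most globin, 8 and 10, were the 2 with the least Klf1 among the Sca-1- libraries.

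Car2, carbonic anhydrase 2, which is abundant in red cells and also used by osteoclasts, had the order of Klf1 among the 5 Sca-1- libraries. It lay at 113, 208, 179.6 and 107 CPM in Sca-1+ 7, 13, 15 and 19 and at 540.2, 574, 1469.9, 1819.8 and 759.9 CPM in Sca-1- 8, 10, 14, 16 and 22. The difference was 6.8-fold (log2 fold change 2.77, SE 0.46, adjusted p = 0.0009 by edgeR), with no overlap. It was the member with the highest median level per kilobase in Sca-1+ ECs, 60.4 RPKM, and the second after Hba-a1 in Sca-1- ECs, 314 RPKM.

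Slc4a1, the anion exchanger band 3 of the red cell membrane, was low throughout. It lay at 0.75, 0.306, 0.483 and 0.0387 CPM in Sca-1+ 7, 13, 15 and 19, the last being 1 count, and at 15.8, 4.4, 0.721, 0.598 and 8.1 CPM in Sca-1- 8, 10, 14, 16 and 22. Sca-1- 14 and 16 lay below Sca-1+ 7, and the other 3 Sca-1- libraries lay above all Sca-1+ libraries. The difference passed (log2 fold change 3.88, SE 1.14, adjusted p = 0.018 by edgeR), but was lost under 4 of 20 alternatives, with the adjusted p at 0.052 without Sca-1+ 13, 0.092 with limma voom, 0.099 in the 6 libraries with neighbouring end numbers and 0.24 (log2 fold change 1.93) with those libraries taken as pairs. Without Sca-1- 8 the log2 fold change was 3.21 (adjusted p = 0.036 by edgeR).

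Alas2, the erythroid enzyme of the first step of heme synthesis, did not pass the test. It lay at 0.307, 0.204, 2.14 and 4.45 CPM in the Sca-1+ libraries and at 30.3, 16.8, 3.65, 1.13 and 5.66 CPM in the Sca-1- libraries (log2 fold change 2.69, SE 1.13, adjusted p = 0.075 by edgeR). Sca-1- 14 and 16 fell within the range of the Sca-1+ libraries. Without Sca-1+ 19, the Sca-1+ library with the most Alas2, the log2 fold change was 3.69 with an adjusted p of 0.046 by edgeR. Its exons overlap those of Apex2 on the other strand, and the use of strand in counting is not given in the sources used here.

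Tfrc, the transferrin receptor through which dividing cells and erythroblasts take up iron, had the smallest difference of the members. It lay at 17.9, 20.8, 16.8 and 30.4 CPM in the Sca-1+ libraries and at 27.8, 41.9, 45.6, 55 and 70.3 CPM in the Sca-1- libraries, overlapping only between Sca-1+ 19 and Sca-1- 8. The difference was 2.24-fold (log2 fold change 1.17, SE 0.3, adjusted p = 0.0099 by edgeR) and did not pass with unscaled library sizes (0.88, adjusted p = 0.13 by edgeR).

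**Figure D3:**
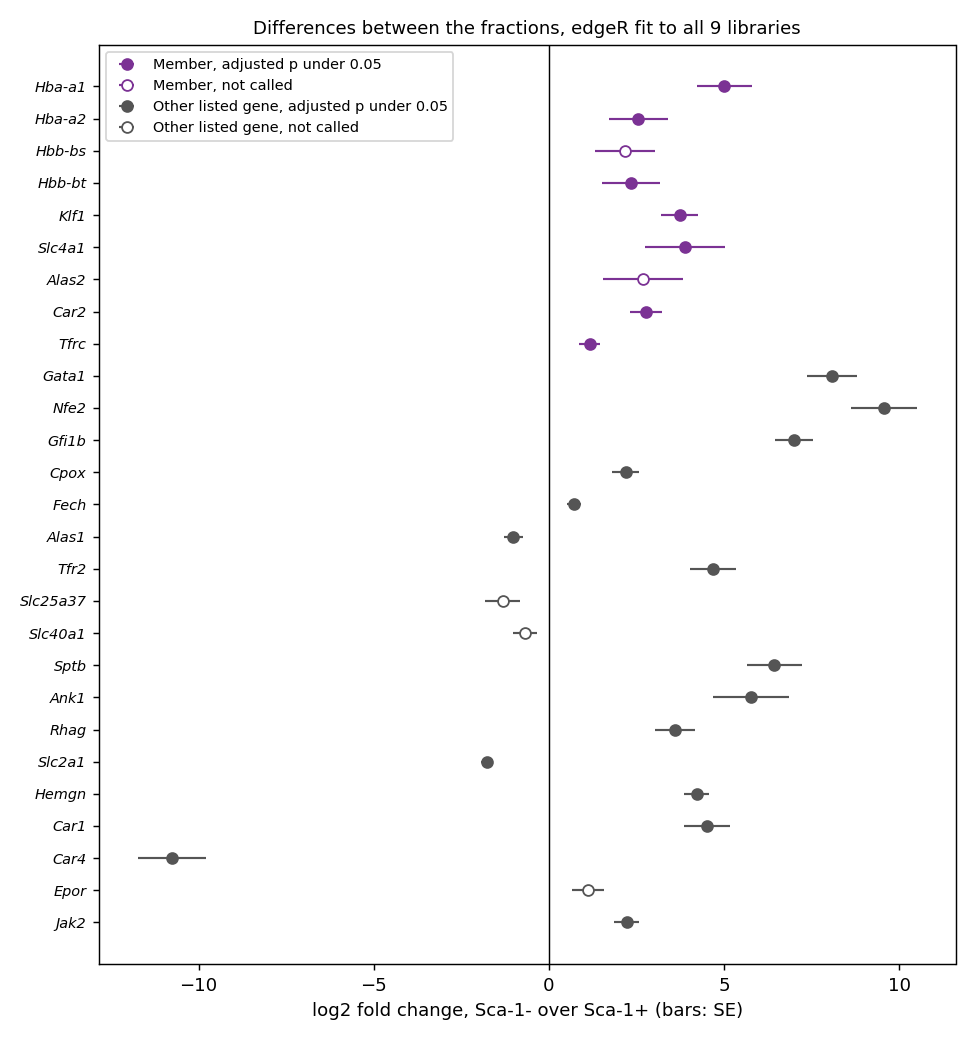
Log2 fold change of Sca-1- over Sca-1+ ECs with its standard error for the 9 members and 18 other listed genes, from the edgeR fit to 4 and 5 libraries. Filled points have an adjusted p under 0.05, and the members' values run from 1.17 for Tfrc to 5.01 for Hba-a1.

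Globin RNA and the summed Klf1, Slc4a1 and Alas2 counts were both higher in every Sca-1- library than in any Sca-1+ library, but were not highest in the same Sca-1- libraries. The summed counts of Klf1, Slc4a1 and Alas2 were 0.000958% to 0.00204% of all counts in Sca-1+ ECs and 0.00718%, 0.00515%, 0.0196%, 0.0308% and 0.0136% in Sca-1- 8, 10, 14, 16 and 22. Klf1 made up 56.9% to 99.3% of that sum in Sca-1- ECs. For each count of the 3 genes there were 14.4, 22.6, 3.12, 1.32 and 3.22 globin counts in Sca-1- 8, 10, 14, 16 and 22. In Sca-1+ 7, 13, 15 and 19 there were 4.63, 2.03, 3.55 and 13.9. The ranges of the 2 fractions overlapped, and the difference of the mean log2 ratio, 0.2, was below the pooled SD of 1.5 and turned negative when Sca-1+ 13, Sca-1- 8 or Sca-1- 10 was left out. With Car2 and Tfrc added to the sum the difference was 1.15.

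The order of the Sca-1- libraries differed between groups of members. The 4 globins and Alas2 were highest in Sca-1- 8 and 10, Klf1 and Car2 in Sca-1- 16 and 14, Slc4a1 in Sca-1- 8 and 22, and Tfrc in Sca-1- 22 and 16. After subtraction of each fraction's mean log2 CPM, the correlation over the 9 libraries was 0.98 between Hbb-bs and Hbb-bt, 0.9 between Alas2 and Hbb-bt, and 0.96 between Klf1 and Car2, but -0.71 between Klf1 and Hbb-bs. Slc4a1 correlated at -0.77 with Klf1 and 0.3 with Hbb-bs. These points share their library and its scaling and are a description.

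**Figure D4:**
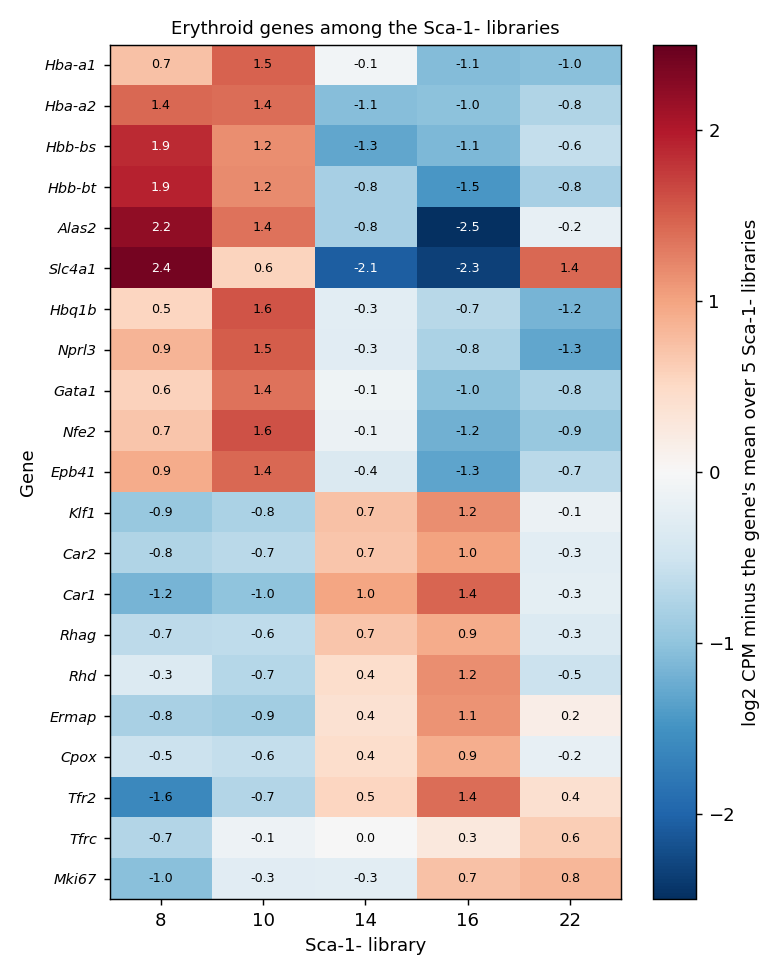
Level of members and other listed genes in each of the 5 Sca-1- libraries, as log2 CPM minus the mean of that gene over these 5 libraries, with the values printed in the cells. Globins, Alas2 and Slc4a1 are high in library 8, Klf1, Car2, Car1 and Rhag are high in libraries 14 and 16, and Rhd and Ermap were added after their values were seen.

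Outside the members, the gene whose deviations were most like those of Hba-a1 among 9860 genes was Tusc2 (Pearson r = 0.991 over 9 libraries), followed by Gtf2a1 (0.982) and Epb41 (0.978), the protein 4.1 gene of the red cell skeleton. For Klf1 they were Ifi35 (0.989), Idnk (0.981) and Magohb (0.967), and for Car2 Mrpl33 (0.975), Crygn (0.974) and again Magohb (0.973). Prkx was among the 3 most like genes of Hba-a2 (0.969), Hbb-bs (0.971) and Hbb-bt (0.969), and Olr1 among those of Hba-a2 (0.969) and Hbb-bs (0.962). Slc4a1 was most like Ctnnd1 (0.955), Alas2 most like Pik3cb (0.945) and Tfrc most like Tap1 (0.975). These genes were picked as the highest of 9860 correlations over only 9 libraries, a choice that yields high values by itself. The libraries' scaling is shared by all genes, so the values are a description and no relation between the genes was tested.

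Markers of other cells also differed between these libraries. The summed megakaryocyte markers were highest in Sca-1- 10 and 8, at 6.92% and 6.5% of the counts, and lowest in Sca-1- 16, at 3.31%. Basophil and mast cell markers took 1.57% of the counts in Sca-1- 16 and 0.188% in Sca-1- 14, against 0.00573% to 0.0251% in the other 3 Sca-1- libraries and 0.00075% to 0.00927% in Sca-1+ ECs. Proliferation genes took 0.0224% and 0.0313% in Sca-1- 8 and 10 and 0.0852% to 0.121% in Sca-1- 14, 16 and 22. Among the Sca-1+ libraries, neutrophil markers took 0.0857% in Sca-1+ 19, the one with the most globin, and 0.000969% to 0.00685% in the other 3. Among the Sca-1- libraries their sum was 0.0149% in Sca-1- 10, which had the most globin, 0.034% in Sca-1- 8 and 0.0746% in Sca-1- 14. In Sca-1- 14 Mpo lay at 598 CPM, against 95.1 to 160.4 CPM in the other Sca-1- libraries, and Elane at 124 CPM, against 8.77 to 33.9 CPM. S100a8, S100a9, Ltf, Camp and Ngp were instead highest, in CPM, in Sca-1- 8 and then 10, and Retnlg in Sca-1- 8 and then 14. This order depended in part on the scaling of library sizes. In unscaled counts Ltf, Camp and Ngp were higher in Sca-1- 22 than in Sca-1- 10, and S100a9 was higher in Sca-1- 16 than in Sca-1- 10. Retnlg had 440 counts in Sca-1- 14 and 359 in Sca-1- 8. The part of all these marker lists in the members' orders was not tested.

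The erythroid transcription factors were higher in Sca-1- ECs or not called. Of 16 tested, Klf1 included, 10 rose, none fell and 6 were not called, with a median log2 fold change of 3.12. Gata1, the master regulator of erythroid cells and megakaryocytes, lay at 3.06 to 7.19 CPM in Sca-1+ ECs and 503 to 2594 CPM in Sca-1- ECs (log2 fold change 8.08, SE 0.71, adjusted p = 3.4e-05 by edgeR). Nfe2, which both lineages use, differed by 9.56 (SE 0.94), Gfi1b by 7 (SE 0.53) and Myb, a factor of progenitors, by 5.87 (SE 0.72) on the log2 scale. Gata1 and Nfe2 were highest in Sca-1- 10 and 8, like Hba-a1, whereas Myb was highest in Sca-1- 22 and 16.

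Heme synthesis was mixed. Of 15 genes, Alas2 included, 7 rose, 3 fell and 5 were not called, with a median log2 fold change of 0.76. Cpox, the coproporphyrinogen oxidase gene, lay at 20 to 36.1 CPM in Sca-1+ ECs and rose to between 75.5 and 214 CPM in Sca-1- ECs (log2 fold change 2.19, SE 0.38). The porphyrin transporter Abcb6 rose by 2.23 (SE 0.63), Tmem14c by 0.9 (SE 0.17) and Fech, which inserts the iron, by 0.71 (SE 0.2). Alas1, the form of the first enzyme used outside the erythroid lineage, fell by 1.02 (SE 0.27), Slc25a39 by 0.97 (SE 0.27) and Ppox by 0.89 (SE 0.21) on the log2 scale. With unscaled library sizes Fech no longer passed (adjusted p = 0.41 by edgeR).

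Of 14 tested genes for iron uptake and handling, Tfrc included, 6 rose, 2 fell and 6 were not called. Tfr2, the second transferrin receptor, which is found in erythroid progenitors and hepatocytes, lay at 1.06 to 2.73 CPM in Sca-1+ ECs and at 12.9, 23.9, 57.8, 105 and 52.5 CPM in Sca-1- 8, 10, 14, 16 and 22 (log2 fold change 4.69, SE 0.65, adjusted p = 0.00031 by edgeR). The ferritin gene Fth1 rose by 1.48 (SE 0.37) and the ferritin receptor gene Ncoa4 by 1.42 (SE 0.26). Hfe, which modulates transferrin receptor binding, fell by 5.01 (SE 0.45) and the mitochondrial iron carrier gene Slc25a28 by 1.28 (SE 0.37) on the log2 scale. Its erythroid relative Slc25a37 had a log2 fold change of -1.32 (SE 0.5, adjusted p = 0.054), and Slc11a2, Steap3 and Slc40a1 had 0.61, 1 and -0.67, with adjusted p = 0.18, 0.083 and 0.13, all by edgeR.

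Red cell membrane and skeleton genes were mostly higher. Of 19, Slc4a1 included, 14 rose, 3 fell and 2 were not called, with a median log2 fold change of 3.56. The largest differences were those of Xk (6.64, SE 0.94), Sptb, beta spectrin (6.44, SE 0.78), Ank1, ankyrin (5.77, SE 1.08, and 7.52 without Sca-1+ 13), and Epb41 (4.81, SE 0.76). In CPM, Xk, Sptb and Epb41 were highest in Sca-1- 10 and 8, like the summed megakaryocyte markers, and Ank1 in Sca-1- 14 and 16. For Xk and Sptb the place of Sca-1- 8 depended on the scaling of library sizes. In unscaled counts Sptb was lowest in Sca-1- 8 among the Sca-1- libraries (353, against 357 to 531). Xk had 573 counts in Sca-1- 8 and 574 in Sca-1- 14. Rhag, the Rh-associated glycoprotein, rose by 3.61 (SE 0.57) and Epb42 by 3.56 (SE 0.87). Dmtn, the water channel gene Aqp1 and the glucose transporter gene Slc2a1 fell by 2.27, 1.89 and 1.77 (SE 0.37, 0.3 and 0.16), and endothelial cells express the last 2 as well.

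Of the 15 other erythroid genes tested, 12 rose, Fam210b fell by 1.35 (SE 0.23) and 2 were not called. Car1, carbonic anhydrase 1, lay at 25 to 46.1 CPM in Sca-1+ ECs and at 305 to 1867 CPM in Sca-1- ECs (log2 fold change 4.52, SE 0.65, adjusted p = 0.00037 by edgeR), and was highest in Sca-1- 16 and 14 like Klf1 and Car2. Trim58 rose by 8.29 (SE 1.16), Mkrn1 by 6.25 (SE 0.69), Tspo2 by 5.3 (SE 0.97) and Hemgn by 4.22 (SE 0.36). In CPM, Trim58 and Mkrn1 were highest in Sca-1- 10 and 8, as were the summed megakaryocyte markers. In unscaled counts Trim58 had 430 in Sca-1- 8 and 469 in Sca-1- 22. Tspo2 was highest in Sca-1- 16 and 14, and Hemgn in Sca-1- 22 and 14. Epor, the erythropoietin receptor, was not called (1.11, SE 0.46, adjusted p = 0.075 by edgeR). Of 10 genes tested for its signalling, 6 rose, among them Tfr2, Bcl2l1 (3.17, SE 0.56), Lyn (3.16, SE 0.57) and Stat5b (3.07, SE 0.56), while the feedback inhibitors Socs3 and Cish fell by 3.2 (SE 0.36) and 1.47 (SE 0.33) on the log2 scale.

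The carbonic anhydrase family split between the fractions. Of 12 tested, 5 were higher in Sca-1- ECs, Car1, Car2, Car3, Car9 and Car12, and 4 were lower, Car4, Car5b, Car7 and Car8, with a median log2 fold change of -0.82. Car12 was at or under 1 count in each Sca-1+ library and at 8.02 to 46.1 CPM in Sca-1- ECs, at least 225-fold higher against a floor of 3 counts per library. Car4, the membrane-anchored form found on endothelium, lay at 19.5 to 119 CPM in Sca-1+ ECs and was listed at 0 in 4 Sca-1- libraries and at 0.204 CPM in Sca-1- 22. Car7 lay at 146 to 176 CPM in Sca-1+ ECs and 0.0424 to 2.94 CPM in Sca-1- ECs.

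Other marker lists put these values in context. Leukocyte markers rose in 10 of 12 cases, among them Ptprc, the gene for the CD45 antigen against which the cells were sorted, at 0 to 2.56 CPM in Sca-1+ ECs and 17.2 to 47.8 CPM in Sca-1- ECs. Basophil and mast cell markers rose in 7 of 7 and proliferation genes in 11 of 12, with median log2 fold changes of 7.52 and 2.61. Of 8 neutrophil markers only Mpo was called, as higher in Sca-1- ECs, and of 5 osteoclast markers Acp5 and Dcstamp were. Calcr was at 0 in all 9 libraries.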

How the data were processed

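Per the labels, RNA came from sorted ECs and 2 ng of total RNA per library went into a full-length cDNA kit (SMART-Seq v4), a poly(A)-primed method without molecular identifiers. PCR copies are thus counted, and floors cover counting error only. The authors deposited a single table of raw gene counts in whole numbers, covering all 9 libraries. The submitters' processing notes name STAR, featureCounts and build mm10, and versions, strand setting and the handling of multi-mapping reads are not given in the sources used here. No column of the table was left without a sample.

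The tests used edgeR 4.0.16 under R 4.3.3. The filter on low counts was filterByExpr (minimum count 10, minimum total 15), library sizes were scaled by TMM, and the fractions were compared with the two-sided quasi-likelihood F-test without robust weights or covariates, at a Benjamini-Hochberg adjusted p of 0.05 over all genes. TMM factors were 1.12 to 1.22 in Sca-1+ and 0.581 to 1.16 in Sca-1- libraries, and a prior count of 2 entered log2 CPM. The fit was first tested on simulated data. RPKM divided CPM by the union of exons in GENCODE M21. Sums and ratios of counts were described without a test. Alternatives used DESeq2 1.42.0 and limma voom 3.58.1 and other scalings, filters and libraries. The members and the 15 gene lists were chosen with earlier results of these data known. Several lists hold members, and 3 listed symbols were matched by identifier under an older name (Epb41, Epb42 and Erfe), while Ahsp was not matched. Genes named are the members, up to 4 called genes of each list with the largest change in each direction, a fixed set of erythroid genes (a few of the genes so chosen are not reported here), and the 3 genes most like each member by Pearson correlation of deviations from fraction means, among genes with an average log2 CPM of at least 3. Promoter windows came from RefSeq on GRCm38.p6 and other coordinates from GENCODE M21 on GRCm38. Figures were made using matplotlib 3.10.9 and Python 3.11.15.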

Additional observations from a re-analysis of the deposited data

Results flagged for a closer look

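Within the groups, 26 sets of 4 or 5 libraries were checked for a single library far from the rest, and 3 stood out, all of them Sca-1+ 19. Chance marks about 1 in 20 such sets, and the sets share libraries. Hba-a1 was at 5.66 log2 CPM there, against 3.7 to 3.72 in the other 3 Sca-1+ libraries. Hbb-bs was at 6.44 log2 CPM, against 3.77 to 4.12. The 4 globins took 0.021% of the counts, against 0.00413% to 0.005%. In the same library Klf1 lay at 8.98 CPM, within the 6.82 to 16.2 CPM of the other 3, Slc4a1 had 1 count, and the summed neutrophil markers took 0.0857% of the counts, against 0.000969% to 0.00685%. The part of the neutrophil markers was not tested.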

How the results depend on the processing

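Under 7 changes of scaling, filter or fit 5 to 7 members were called, with the DESeq2 test 9 were. Each member kept a positive log2 fold change under every alternative that held its row. Leaving out each library gave 4 to 9 members (4 without Sca-1+ 13, 9 without Sca-1+ 19 or Sca-1- 16) and 5957 to 6969 called genes, against 7137. Hba-a1, Klf1 and Car2 passed under all 20 alternatives, Tfrc under 18, Slc4a1 under 16, Hba-a2 under 14 of 19, Hbb-bt under 11 of 19, Hbb-bs under 6 and Alas2 under 3. Where the copies of each globin pair were summed, the sums stood in the rows of Hba-a1 and Hbb-bs, so that alternative does not test these genes singly. DESeq2 called Hbb-bs (adjusted p = 0.01) and Alas2 (adjusted p = 0.012). No number ending a label occurs in both fractions. Neighbouring end numbers, such as 7 and 8, were taken as a replicate block of 3 pairs. This gave 4340 called genes and 4 members, against 5360 and 7 in the same 6 libraries without the pairing. The deviations of the pairs correlated at 0.147, 0.148 and 0.042. All other combinations of a Sca-1+ with a Sca-1- library ran from -0.191 to 0.065. Each of the 3 Sca-1- libraries in the pairs correlated most with its neighbour. No test was run on these correlations, and the pairing is not established. The log2 ratio of globin to Klf1, Slc4a1 and Alas2 counts differed by 0.2 between the fractions, by -0.32 to 0.73 without single libraries (-0.2 without Sca-1+ 13, -0.16 without Sca-1- 8, -0.32 without Sca-1- 10) and by 1.15 with Car2 and Tfrc added to the sum. The alpha to beta log2 ratio differed by 2.17 to 2.7 without single libraries. Where a call changed, the cause was not tested. Slc4a1 and Alas2 had as few as 1 and 6 counts in a library.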
